A study of Mus musculus with 8 samples.

Results

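Tubulins and the proteins that bind them were examined in embryonic mouse cortex after knockdown of Foxo6, a forkhead transcription factor. The set held 9 genes chosen by name, of 18295 genes named on the array: the tubulin isotypes Tuba1a, Tubb2b, Tubb3 and Tubb5, the microtubule-associated protein genes Map1b and Mapt, and the stathmin genes Stmn1, Stmn2 and Stmn3. Every probe paired with these symbols was used, 17 of 41174 gene probes, and all 9 genes had at least 1. Map1b was found under its older symbol Mtap1b.

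The study introduced siRNA into C57/BL6 embryos by in utero electroporation at embryonic stage E14.5, together with a GFP vector. Cortical cells were dissociated and sorted at E16.5, and cortices were pooled before measurement. The groups were siFoxO6-2 and siFoxO6-3, which are different siRNAs against Foxo6, with 4 pools each. The control was a single pool that received a scrambled siRNA and served as reference on all 8 two-colour arrays. No other genotype or allele is given in the labels, all groups carried the GFP vector, and the number of cortices per pool is not given. The siRNA pool was in Cy5 on replicates 2 and 4 of each siRNA and in Cy3 on replicates 1 and 3. A value below is a log2 ratio of siRNA pool over scrambled pool after loess normalization within the array, unless another scale is named. The control had 1 pool, so a test against it leaves out the spread between control pools, and both siRNA comparisons share that pool.

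Microtubules are hollow polymers of alpha- and beta-tubulin dimers that give migrating neurons their leading process and carry the nucleus and cargo along it. Microtubule-associated proteins such as tau and MAP1B bind along the polymer, whereas stathmins bind free tubulin dimers and promote disassembly. In human patients, mutations in TUBA1A, TUBB2B, TUBB3 and TUBB cause malformations of the cortex.

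Promoter sequences were found for 5 of the 9 genes in the RefSeq table on build GRCm38.p6, covering 250 bases before to 50 bases after the start site. Those of 3 tubulin genes are shown because their probes differed in direction or call. The Tuba1a window is chr15:98953452-98953751 on the minus strand, the Tubb3 window is chr8:123411303-123411602 on the plus strand, and the Tubb5 window is chr17:35838252-35838551 on the minus strand. Capitals mark CCAAT, a promoter motif, or its reverse complement ATTGG.
Tuba1a: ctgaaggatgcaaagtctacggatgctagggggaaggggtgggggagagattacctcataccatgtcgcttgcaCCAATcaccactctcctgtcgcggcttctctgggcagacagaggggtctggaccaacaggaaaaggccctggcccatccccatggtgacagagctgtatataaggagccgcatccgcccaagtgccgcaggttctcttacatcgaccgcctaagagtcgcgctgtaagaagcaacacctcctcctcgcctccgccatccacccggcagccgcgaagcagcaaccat
Tubb3: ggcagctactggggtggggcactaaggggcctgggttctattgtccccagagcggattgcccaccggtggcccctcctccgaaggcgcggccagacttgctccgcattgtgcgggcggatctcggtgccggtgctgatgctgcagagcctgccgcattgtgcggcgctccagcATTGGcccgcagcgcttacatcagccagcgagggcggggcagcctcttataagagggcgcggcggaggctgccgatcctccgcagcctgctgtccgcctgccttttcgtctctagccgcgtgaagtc
Tubb5: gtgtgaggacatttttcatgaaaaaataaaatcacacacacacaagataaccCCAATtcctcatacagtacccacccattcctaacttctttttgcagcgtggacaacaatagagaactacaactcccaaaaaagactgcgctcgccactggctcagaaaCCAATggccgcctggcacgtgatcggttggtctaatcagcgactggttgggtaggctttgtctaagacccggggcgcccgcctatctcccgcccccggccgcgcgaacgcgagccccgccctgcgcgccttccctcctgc
CCAAT on either strand was present in 37.4% of 32851 mouse promoter windows of the same length. It lay at base -176 of Tuba1a, on the opposite strand from base -77 of Tubb3, and at bases -198 and -90 of Tubb5. The motif TATAAA, or TTTATA on the other strand, was found in Map1b from base -99, and in 13.6% of all windows. GTAAACA or its complement TGTTTAC, the core motif bound by FoxO factors, was found in 0 of the 5 member windows and in 3.65% of all windows. These matches describe letters in a window and not bound sites.

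Foxo6 itself was lower on 8 of 8 arrays. Its log2 ratio was -0.95 ± 0.41 (SD, n = 4) for siFoxO6-2 and -1.65 ± 0.49 (SD, n = 4) for siFoxO6-3, with limma's adjusted p = 0.00134 over both siRNAs. With each array centred on its median in place of loess, the Foxo6 log2 ratio was -0.69 (adjusted p = 0.0706).

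Beta-tubulin Tubb5 and the brighter probe of Stmn2 were lower after Foxo6 knockdown, while Tubb3, Map1b and Stmn3 had no probe that passed the test. Over both siRNAs, 7 of 17 member probes passed an adjusted p of 0.05 in limma, 1 higher and 6 lower, against 11.8% of all gene probes (6.12% higher and 5.73% lower). This 41.2% of the member probes also stands beside 27.1% called among the 2058 brightest gene probes, to which all 7 called member probes belong. The 17 include all probes of Map1b and the dimmest of Mapt, Stmn1 and Stmn2, which lie outside those 2058. The shares are therefore not matched for brightness. Among the 6 lower probes, that of Tuba1a was saturated on every array. The median log2 ratio of the member probes was -0.17, against 0.0028 for all gene probes. Of the 9 genes, by their brightest probe, 1 was called higher, 4 lower and 4 in neither direction, against 15.2% of 18295 genes called in all (7.29% higher and 7.95% lower). The 4 called lower include Tuba1a, for which saturation leaves no direction to be given. In these bulk samples, fewer cells of a type and less RNA per cell cannot be told apart.

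Those directions rest on the loess step, which removes any trend of the ratio with brightness. With each array centred on its median instead, the median of the 2058 brightest probes lay towards the siRNA channel on 6 of 8 arrays, the exceptions being siFoxO6-2 replicate 3 and siFoxO6-3 replicate 4. Over both siRNAs the 411 brightest probes then had a median log2 ratio of 0.78 and the 2058 brightest one of 0.67, while that of all probes was -0.0014. On that scale the brightest probe of each of the 9 members was above 0, from 0.32 for Tubb5 to 1.34 for Tubb2b, and 0 of 17 member probes were called. Relative to the 2058 brightest probes, only Tubb2b and Stmn1 (0.74) were then above the median by their brightest probe. Both Tubb5 probes were below it, at 0.32 and 0.21. So were the brightest probes of Tuba1a, Tubb3, Map1b, Mapt, Stmn2 and Stmn3, from 0.36 to 0.66, so this was not particular to Tubb5. The Map1b probe is not itself among the 2058. The plot of fitted values under 3 normalizations shows this shift.

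**Figure D1:**
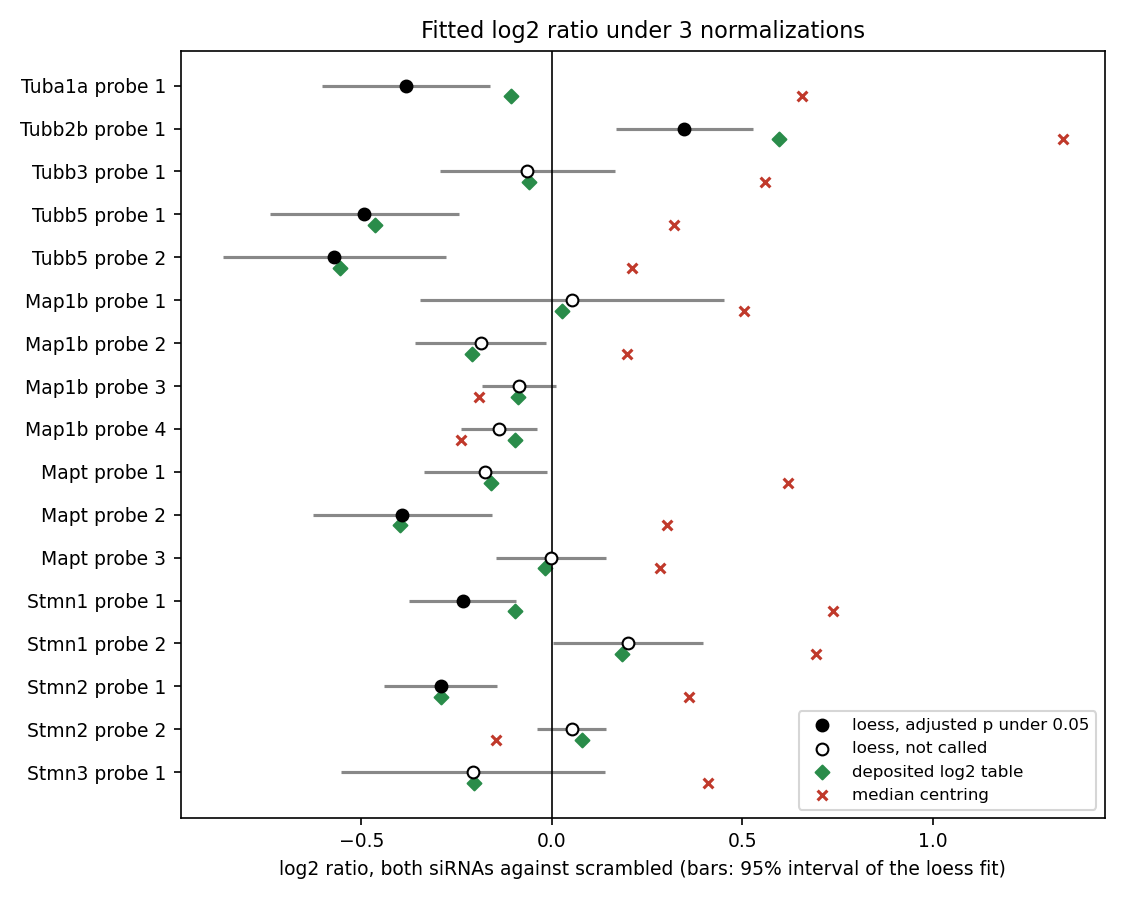
Fitted log2 ratio over both siRNAs for each of the 17 member probes (vertical axis), after loess (circles with 95% intervals, filled where the adjusted p is under 0.05), in the deposited log2 table (diamonds) and after median centring (crosses). Loess and deposited values lie close together except for Tuba1a, Tubb2b and Stmn1 probe 1, and median centring moves bright probes to the right of 0.

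Tubb5, a beta-tubulin expressed in progenitors and neurons, was lower by both of its probes. For probe 1 the siFoxO6-2 pools gave log2 ratios of -0.69, -0.50, -0.054 and -0.97 in replicates 1 to 4. For the same probe the siFoxO6-3 pools gave -0.77, -0.31, -0.47 and -0.15. All 8 arrays were below 0 and the siRNA groups overlapped. The fitted log2 ratio over both siRNAs was -0.49 (SE 0.107, 95% interval -0.74 to -0.24, adjusted p = 0.0270 in limma), or 0.711-fold. Probe 2 gave -0.42, -0.72, 0.13 and -1.0 with siFoxO6-2 and -0.73, -0.33, -0.99 and -0.50 with siFoxO6-3. It was below 0 on 7 of 8 arrays, the exception being siFoxO6-2 replicate 3. Its fitted log2 ratio was -0.57 (SE 0.125, adjusted p = 0.0283 in limma). The mean log2 ratios of Cy5 and Cy3 arrays differed by 0.012 for probe 1, and 0 of its spots were saturated. In the deposited table both probes were below 0 on 8 of 8 arrays.

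For Tubb5 the siRNAs taken alone did not pass the test. The log2 ratio of probe 1 was -0.56 (adjusted p = 0.0684) with siFoxO6-2 and -0.43 (adjusted p = 0.264) with siFoxO6-3 in limma. Their difference was 0.13 with a 95% interval of -0.37 to 0.63. Leaving out 1 array kept the probe 1 call over both siRNAs without siFoxO6-2 replicate 3 (adjusted p = 0.00255) and without siFoxO6-3 replicate 4 (adjusted p = 0.0289). Without any other single array, the adjusted p was 0.0675 to 0.0873.

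**Figure D2:**
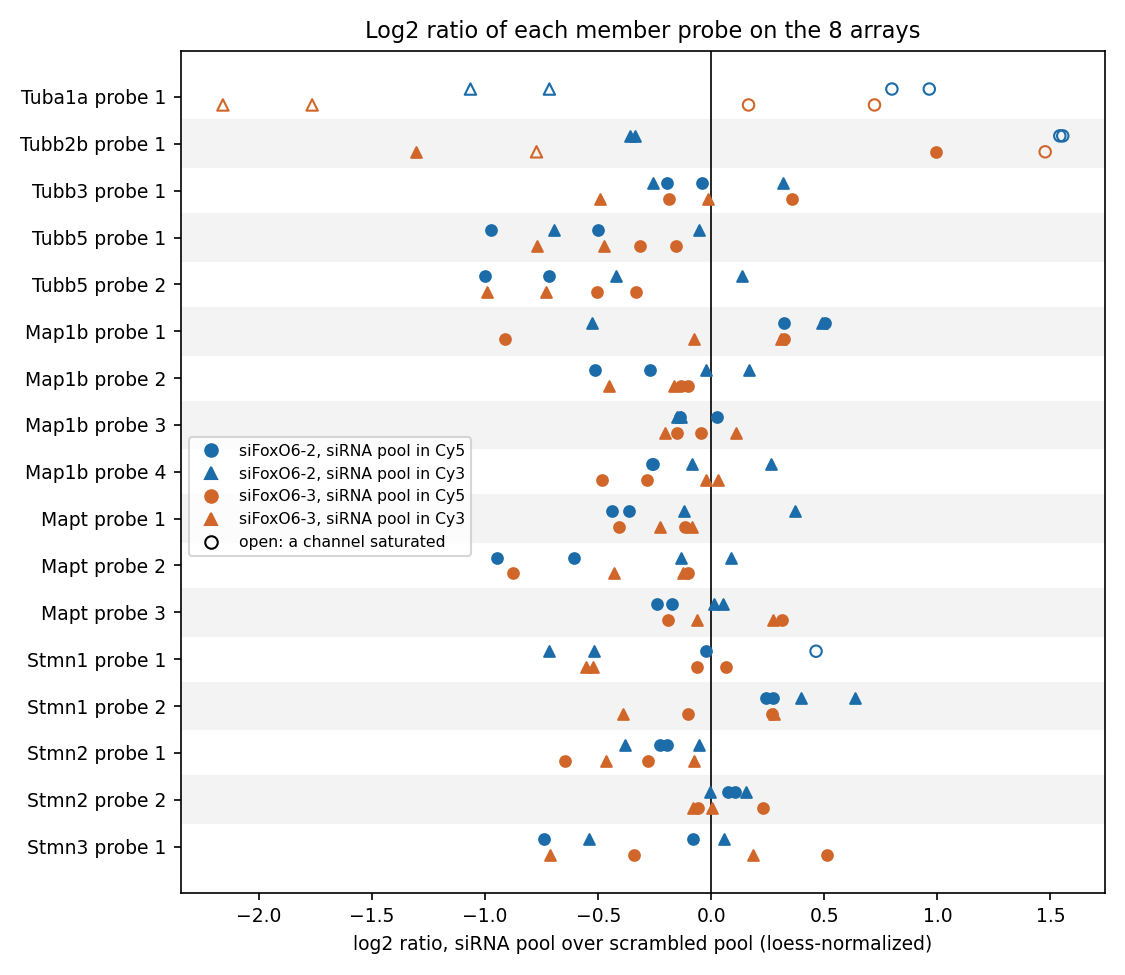
Loess-normalized log2 ratio of each member probe (vertical axis) on each of the 8 arrays (points), by siRNA (colour) and by the dye of the siRNA pool (circle or triangle), with open symbols where a channel was saturated. Tubb5 probe 1 and Stmn2 probe 1 lie below 0 on all 8 arrays, and Tuba1a and Tubb2b separate by dye.

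Tuba1a, the main alpha-tubulin of young neurons, was beyond the range of the scanner. Its spot was saturated in the siRNA channel on 6 arrays, in the scrambled channel on 4, and in at least 1 channel on 8 of 8. Intensities of the scrambled channel ran from 4040 to 64800, and those of the siRNA channel from 35700 to 65300. The log2 ratios were -1.06, 0.80, -0.72 and 0.96 with siFoxO6-2 and -1.76, 0.72, -2.16 and 0.16 with siFoxO6-3. The 4 arrays with the siRNA pool in Cy5 lay between 0.16 and 0.96, and the 4 with it in Cy3 between -2.16 and -0.72, without overlap. The fit, which removes a constant dye term, gave a log2 ratio of -0.38 (SE 0.0944, adjusted p = 0.0416 in limma). With saturated spots left out no value remained, and the fit to the deposited table gave -0.11 (adjusted p = 0.478), so no direction is given for Tuba1a.

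Tubb2b, a beta-tubulin of migrating neurons, was the only member called higher. Its log2 ratios were -0.36, 1.55, -0.34 and 1.54 with siFoxO6-2. With siFoxO6-3 they were -1.31, 1.48, -0.77 and 0.99. The Cy5 arrays, between 0.99 and 1.55, and the Cy3 arrays, between -1.31 and -0.34, did not overlap. The siRNA channel was saturated on 4 of the 8 arrays and the scrambled channel on 0. Over both siRNAs the fitted log2 ratio was 0.35 (SE 0.0772, adjusted p = 0.0290 in limma), or 1.27-fold. With saturated spots left out 4 arrays remained, and the fit to them gave 0.80 for siFoxO6-2 and -0.16 for siFoxO6-3. Both remaining siFoxO6-2 arrays had the siRNA pool in Cy3 and lay below 0, at -0.36 and -0.34. The 0.80 thus rests on the dye term, which came from the remaining siFoxO6-3 arrays at -1.31 (Cy3) and 0.99 (Cy5).

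Tubb2b was also the only member probe called for siFoxO6-2 alone, 1 of 17 against 7.86% of all gene probes (4.08% higher and 3.78% lower). Its log2 ratio there was 0.60 (95% interval 0.34 to 0.85, adjusted p = 0.0213 in limma), while that of siFoxO6-3 was 0.098 (95% interval -0.16 to 0.35, adjusted p = 0.754). The difference between the siRNAs was -0.50 with a 95% interval of -0.86 to -0.14, and its adjusted p over all probes was 0.521. In the deposited table Tubb2b was above 0 on 8 of 8 arrays, from 0.021 to 1.26, with a fitted log2 ratio of 0.60 (adjusted p = 0.0156 in limma). The call over both siRNAs was lost without the dye term (adjusted p = 0.63). It was kept without siFoxO6-2 replicate 3, siFoxO6-3 replicate 1 or siFoxO6-3 replicate 4 (adjusted p 0.0187 to 0.0366), and lost without any other single array (adjusted p 0.0635 to 0.0924).

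**Figure D3:**
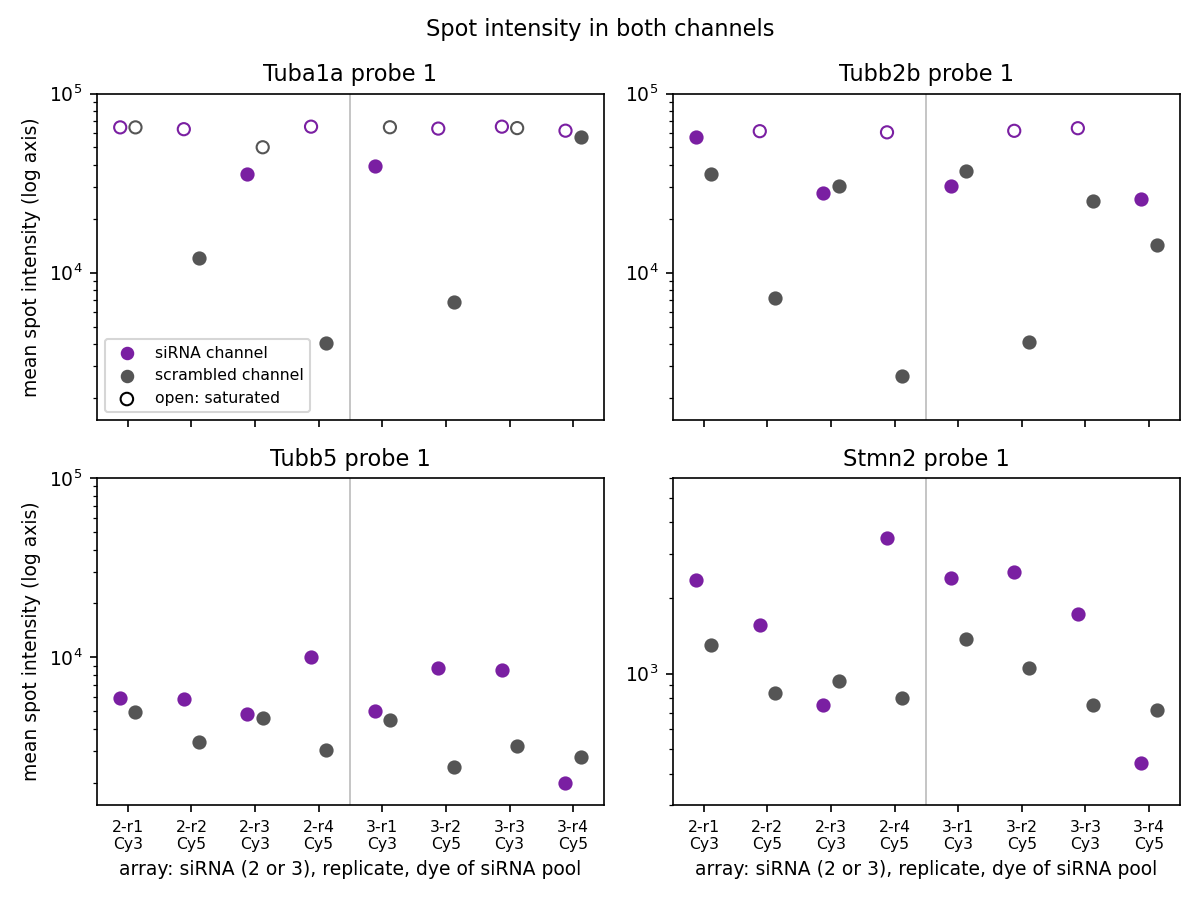
Mean spot intensity (logarithmic axis) in the siRNA channel and the scrambled channel on each of the 8 arrays (horizontal axis) for Tuba1a, Tubb2b, Tubb5 probe 1 and Stmn2 probe 1, with open symbols for saturated spots. Tuba1a reaches the ceiling in at least 1 channel on every array, Tubb2b in the siRNA channel of 4 arrays, and Tubb5 and Stmn2 stay below it.

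Tubb3, the class III beta-tubulin used as a marker of neurons, did not pass the test. Its log2 ratios were -0.26, -0.041, 0.32 and -0.19 with siFoxO6-2 and -0.49, -0.19, -0.015 and 0.36 with siFoxO6-3. The arrays lay on both sides of 0, 6 below and 2 above. The fitted log2 ratio was -0.064 with a 95% interval of -0.29 to 0.17 (adjusted p = 0.754 in limma). The 3 arrays least like the others over all probes were siFoxO6-2 replicate 3 and siFoxO6-3 replicates 3 and 4. With these left out, an alternative added after the data were seen, Tubb3 was at -0.27 (adjusted p = 0.00558 in limma). That alternative called 22.4% of all gene probes and 53.4% of the 2058 brightest, against 11.8% and 27.1% in the main fit. Its arrays were picked from these same data, so its p-values are no support, here or wherever it is given below.

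Of the microtubule-associated proteins, Mapt gave different results by probe. Mapt encodes tau, which binds along axonal microtubules. Its brightest probe gave 0.37, -0.44, -0.12 and -0.36 with siFoxO6-2 and -0.087, -0.41, -0.23 and -0.12 with siFoxO6-3. That probe was below 0 on 7 of 8 arrays, with siFoxO6-2 replicate 1 above, and its fitted log2 ratio of -0.17 was not called (SE 0.0694, adjusted p = 0.161 in limma). Probe 2 gave 0.088, -0.61, -0.13 and -0.95 with siFoxO6-2 and -0.43, -0.88, -0.13 and -0.10 with siFoxO6-3. It was lower on the same number of arrays, and its fitted log2 ratio of -0.39 passed (SE 0.100, adjusted p = 0.0463 in limma). Probe 3, which was dimmer, had a fitted log2 ratio of -0.0021 with 4 arrays on each side of 0. The probe 2 call was kept without siFoxO6-2 replicate 3 (adjusted p = 0.0450) or siFoxO6-3 replicate 4 (adjusted p = 0.00772), and lost without any other single array (adjusted p 0.0728 to 0.138). Probe 1 was called lower without siFoxO6-2 replicate 1 (-0.24, adjusted p = 0.0387 in limma), and not without any other single array.

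Map1b, whose protein binds microtubules in growing axons and migrating neurons, had 4 probes and 0 calls. Probe 1 gave 0.49, 0.32, -0.53 and 0.50 with siFoxO6-2 and 0.31, 0.32, -0.077 and -0.91 with siFoxO6-3. The arrays below 0 were siFoxO6-2 replicate 3 and siFoxO6-3 replicates 3 and 4, the same 3 arrays. The fitted log2 ratio of probe 1 was 0.053 with a 95% interval of -0.35 to 0.45, and with those 3 arrays left out it was 0.38 (adjusted p = 0.00131 in limma). The fitted log2 ratios of probes 2, 3 and 4 were -0.19, -0.086 and -0.14, with adjusted p of 0.0813 to 0.240. Probe 2 was called lower without siFoxO6-2 replicate 3 (-0.24, adjusted p = 0.0478 in limma), and not without any other single array. Probes 3 and 4 were not above the empty spots in every array and channel.

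Of the stathmins, Stmn2 was lower by its brightest probe, that of Stmn1 was called lower but split by dye, and Stmn3 did not pass. Stmn2, known as SCG10, is a neuronal stathmin of growth cones. Its probe 1 gave -0.054, -0.20, -0.38 and -0.23 with siFoxO6-2 and -0.078, -0.65, -0.46 and -0.28 with siFoxO6-3. All 8 arrays were below 0, with 0 saturated spots, and the siRNA groups overlapped. The fitted log2 ratio was -0.29 (SE 0.0635, 95% interval -0.44 to -0.14, adjusted p = 0.0276 in limma), or 0.817-fold, and that of the deposited table was -0.29 (adjusted p = 0.0255). Stmn2 probe 2 had a fitted log2 ratio of 0.052 (adjusted p = 0.468), but it was above the empty spots on 5 arrays in the siRNA channel and on 2 in the scrambled channel. The probe 1 call was kept without siFoxO6-2 replicate 3, siFoxO6-3 replicate 1 or siFoxO6-3 replicate 4 (adjusted p 0.0262 to 0.0331), and lost without any other single array (adjusted p 0.0605 to 0.0793).

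Stmn1, the stathmin of dividing and differentiating cells, had probes that lay on opposite sides of 0. Probe 1 gave -0.72, -0.025, -0.52 and 0.46 with siFoxO6-2 and -0.52, -0.063, -0.55 and 0.067 with siFoxO6-3. As with the 2 brightest tubulins, the Cy5 arrays, from -0.063 to 0.46, did not overlap the Cy3 arrays, from -0.72 to -0.52, and the spot was saturated on 1 array. Its fitted log2 ratio was -0.23 (SE 0.0604, adjusted p = 0.0473 in limma). The fit to the deposited table gave -0.095 (adjusted p = 0.580). Probe 2 gave 0.63, 0.24, 0.40 and 0.27 with siFoxO6-2 and 0.28, 0.27, -0.39 and -0.10 with siFoxO6-3, all of siFoxO6-2 above 0. Its fitted log2 ratio was 0.20 (SE 0.0842, adjusted p = 0.183 in limma). The probe 1 call was kept without siFoxO6-2 replicate 3 (adjusted p = 0.0465) or replicate 4 (adjusted p = 0.0138), and lost without any other single array (adjusted p 0.0826 to 0.14). Without the 3 arrays least like the others, probe 1 was not called (-0.25, adjusted p = 0.0757) and probe 2 was called higher (0.35, adjusted p = 0.00323). Probe 2 was also called higher without siFoxO6-3 replicate 3 alone (0.29, adjusted p = 0.0303).

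Stmn3, a neuronal stathmin known as SCLIP, did not pass the test. It gave -0.54, -0.74, 0.056 and -0.079 with siFoxO6-2 and -0.71, -0.34, 0.18 and 0.51 with siFoxO6-3. The arrays above 0 were again those 3 that were least like the others. The fitted log2 ratio was -0.21 with a 95% interval of -0.55 to 0.14 (adjusted p = 0.447 in limma), and without those 3 arrays it was -0.51 (adjusted p = 0.00716).

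With siFoxO6-3 alone, 0 of 17 member probes were called, against 0.658% of all gene probes (0.265% higher and 0.393% lower), and 7 of 17 had an unadjusted p under 0.05, against 14.1% of all gene probes. For the difference between the siRNAs, in which the shared scrambled pool cancels, 0 of 17 member probes and 0.00% of all gene probes were called in limma. At an unadjusted p under 0.05, 2 member probes differed between the siRNAs, those of Tuba1a and Tubb2b, both with saturated spots, against 6.77% of all gene probes. Among the 14 member probes with no saturated spot on any array, 4 were called lower over both siRNAs, 0 higher and 10 in neither direction. That share of 28.6% stands beside 27.5% called among the 2011 never-saturated probes of the 2058 brightest, and 11.9% among all 41126 never-saturated gene probes. The 14 include the dimmer probes of Map1b, Mapt, Stmn1 and Stmn2 at brightness ranks 4551 to 31008, none of them called. The 28.6% is therefore not matched for brightness with the 27.5%.

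The members did not move as a block across arrays. The mean log2 ratio of their brightest probes ran from -0.60 on siFoxO6-3 replicate 1 to 0.18 on siFoxO6-2 replicate 4. This mean includes Tuba1a and Tubb2b and split by dye as they did, from 0.062 to 0.18 on Cy5 arrays and from -0.60 to -0.25 on Cy3 arrays. Over the 36 pairs of members, Pearson's r across the 8 arrays had a median of 0.0030 and ran from -0.874 to 0.968, with 18 pairs positive and 18 negative. These points share the scrambled pool and the dye orientation. Among 13050 other genes measured above the empty spots on every array, Cysltr2 and Olfr1350 (r = 0.959 each), Abcb11 and Olfr181 (0.955 each) and 6330409D20Rik (0.950) had profiles most like the members' mean. Of these, Olfr181 and Olfr1350 were also the genes most like the saturated Tuba1a, and Abcb11 was among those most like Tubb2b. All 5 were higher on Cy5 than on Cy3 arrays, by 0.19 to 0.37, as that mean was. Most like Tubb5 were Eif3b (r = 0.980) and Foxq1 (0.979), most like Tubb3 were Cdk5 (0.975) and D11Wsu47e (0.970), and most like Stmn2 were Snhg11 (0.950) and Iglc2 (0.936). For Tubb2b they were Olfr15 (0.978) and Abcb11 (0.975). For Map1b they were Tab2 (0.987) and Scp2 (0.980), and for Mapt Hs3st4 (0.985) and Dusp2 (0.957). For Stmn1 they were Thrb (0.948) and Gpr82 (0.941), and for Stmn3 Fsd1 (0.974) and Dph3 (0.968). Each r is the highest or next highest of 13050 over only 8 arrays, on ratios with the dye difference left in. Values this high can arise from such a search alone, and shared regulation was not tested. Olfr15, whose spot was saturated on 3 arrays, differed between Cy5 and Cy3 arrays by 2.83, as Tubb2b did by 2.09.

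After loess, other genes of the microtubule system were more often called lower than higher. Of 131 listed genes, 127 were on the array, and by their brightest probe 10 were called higher and 38 lower, 37.8% against 15.2% of all genes. The share called was larger among brighter probes. It was 27.1% of the 2058 brightest, which themselves had more probes lower (343) than higher (214) and a median log2 ratio of -0.0475. With dim probes left out, 4739 of 21473 were called, 2441 higher and 2298 lower. Of the 127 genes, 121 were above the empty spots on every array, so the 15.2% is not matched for brightness. The median log2 ratio of these 127 genes was -0.084, against 0.0006 for all genes. With siFoxO6-2 alone 5 were higher and 20 lower, against 10.1% of all genes (4.69% higher and 5.42% lower). With siFoxO6-3 alone 1 was higher and 7 lower, against 0.989% (0.476% higher and 0.514% lower). With median centring 3 were called higher and 0 lower, the median became 0.31 against 0.18 for all genes, and 8 of the 38 lower genes stayed below 0. Of the 30 list genes named in what follows, 15 had further, dimmer probes. Of these 31 probes, 3 were called in the direction of the brightest (Mapre1, Map4 and Dyrk1a) and 28 were not called, and 18 were not above the empty spots on every array.

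Among the other tubulin isotypes 3 of 12 were lower and 1 higher. Tubb2a, a close paralog of Tubb2b, was lower at -0.47 by its brightest probe (adjusted p = 0.0219 in limma). Its probes 2 and 3 were at -0.19 (adjusted p = 0.286) and 0.054 (adjusted p = 0.6) and not called, and cross-hybridisation between their probes was not tested. Tuba4a was lower at -0.41, Tubg1, the gamma-tubulin of nucleation sites, at -0.33, and Tubd1 was higher at 0.20. The 2 dimmer probes of Tuba4a gave 0.23 and 0.15, neither called, and with median centring the median of these 12 genes was 0.39.

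Other microtubule-associated proteins and stathmins had 8 of 23 genes lower and 1 higher. Dpysl3 and Crmp1, collapsin response mediator proteins that bind tubulin dimers, were each lower at -0.61. Map7d1 was lower at -0.37 and Map4 at -0.32. On the median-centred scale Dpysl3 was at -0.071 and the other 3 were above 0, from 0.042 to 0.33.

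Tubulin folding was the list with more genes higher than lower, 4 against 2 of 16. The cofactors Tbca (0.59) and Tbce (0.27) were higher, whereas the cofactor Tbcd (-0.47) and the chaperonin subunit Cct7 (-0.54) were lower. A dimmer probe of Tbca was not called (adjusted p = 0.991). Of the 17 tubulin-modifying enzymes, 3 were lower and 1 higher. The deacetylase Hdac6 was at -0.35, Ttll12 at -0.43, the carboxypeptidase Vash1 at -0.15, and the glutamylase Ttll11 at 0.31. Of the 6 severing enzymes, Katnal2 was higher at 0.24 and Katnal1 lower at -0.22. With median centring Tbcd stayed below 0 at -0.068, and the other genes of these 3 lists named as lower turned above it.

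End-binding and anchoring proteins had 7 of 19 genes lower and 0 higher. Mapre1, which encodes the plus-end protein EB1, was at -0.51, Nav1 at -0.41, the spectraplakin Dst at -0.65 and Tubgcp2 of the nucleation complex at -0.20. On the median-centred scale Nav1 and Dst stayed below 0, at -0.17 and -0.30, whereas Mapre1 and Tubgcp2 were at 0.26 and 0.063. The 3 dimmer probes of Mapre1 differed among themselves. Probe 2 was called lower at -0.34 (adjusted p = 0.0473), while probe 3 was above 0 on 7 of 8 arrays at 0.25 (adjusted p = 0.0504) and probe 4 was at 0.0051 (adjusted p = 0.94). Kinases acting on tau, MAP1B and stathmins had 5 of 13 lower and 0 higher, among them Dyrk1a (-0.35), Gsk3a (-0.39), Mark4 (-0.44) and Cdk5r1 (-0.38), the activator of Cdk5, and with median centring these 4 were above 0.

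Of the kinesin and dynein genes 9 of 21 were lower and 2 higher. Dync1h1, the heavy chain of cytoplasmic dynein, was below 0 on 8 of 8 arrays, from -1.17 to -0.85, with a log2 ratio of -0.98 (SE 0.0370, adjusted p = 0.000453 in limma). Kif5b, a kinesin heavy chain, was at -0.94, and the dynein partners Ndel1 and Dctn1 were at -0.40 and -0.28. With median centring Dync1h1 was at -0.37, Kif5b at -0.33 and Dctn1 at -0.26, and Ndel1 turned to 0.22. The 3 other probes of Dync1h1 and the 2 of Kif5b were dimmer, lay between -0.028 and 0.040, and were not called.

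**Figure D4:**
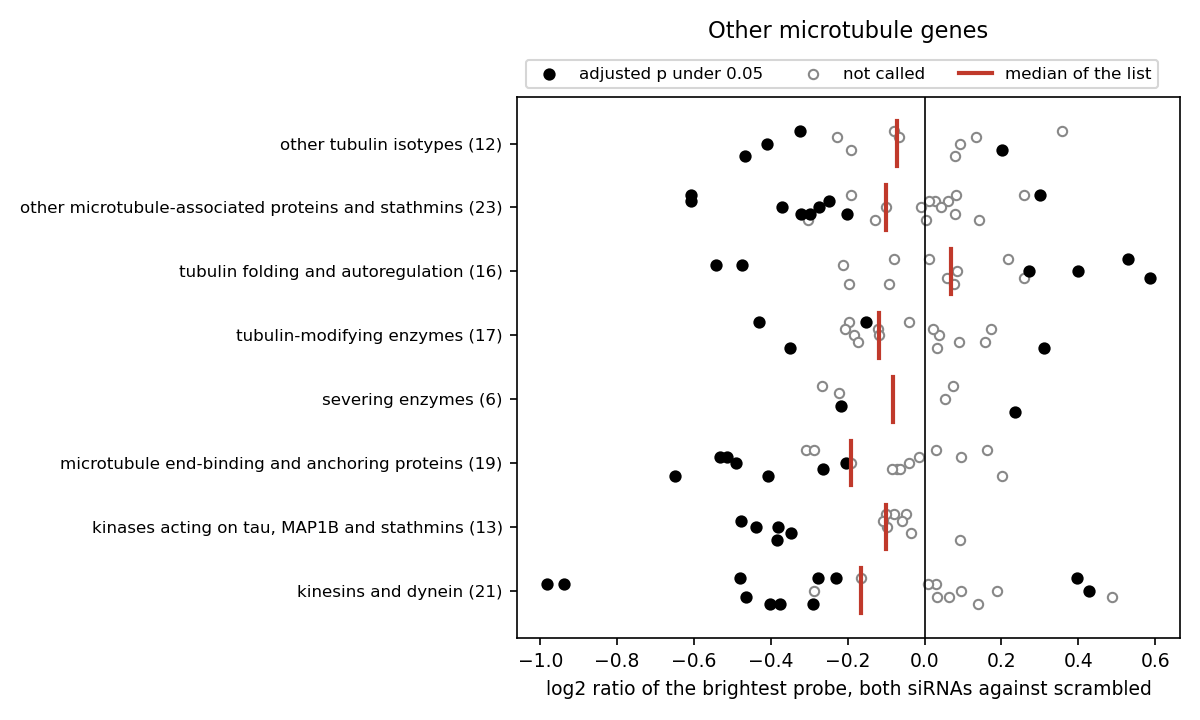
Log2 ratio over both siRNAs (horizontal axis) of the brightest probe of 127 other microtubule genes in 8 lists (number of genes in brackets), filled where the adjusted p is under 0.05, with the list median as a red bar. The median lies below 0 in 7 of 8 lists after loess, and the tubulin folding list has a median of 0.068.

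Cell type markers were set beside these values. By the brightest probe, 7.29% of all genes were called higher and 7.95% lower, so 1 call in a list this short is near that share. Of the cortical neuron markers, 10 of 10 on the array were above the empty spots on every array, with 0 called higher and 1 lower (Bcl11b, -0.55), and their mean log2 ratio per array ran from -0.38 to 0.43 with siFoxO6-2 and from -0.42 to 0.064 with siFoxO6-3. Radial glia markers had 1 of 12 higher (Slc1a3, 0.45) and 3 lower, led by Nes (-0.50) and Gli3 (-1.18), and ran from -0.55 to -0.046 and from -0.45 to 0.19. Microglia markers, of which 9 of 12 were above the empty spots on every array, had 6 higher, led by Ctss (1.04) and Lyz2 (0.87), and 0 lower. They ran from 0.32 to 0.52 with siFoxO6-2 and from 0.14 to 0.17 with siFoxO6-3. With siFoxO6-2 alone 6 were called higher, against 4.69% of all genes, and with siFoxO6-3 alone 0, against 0.476%. Oligodendrocyte and astrocyte markers had 3 of 10 higher and 1 lower, endothelial markers 1 of 10 higher, intermediate progenitor markers 1 of 7 lower, and interneuron markers 0 of 7 called. Red blood cell markers had 1 of 7 lower, and pancreatic acinar genes, listed because they stood out in earlier results of these data, 2 of 9 lower. With median centring the microglia markers had 2 of 12 higher and 0 lower, against 1.69% of all genes called in either direction. The part of these markers in the results for the members was not tested.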

How the data were processed

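RNA from 8 siRNA pools was hybridised against 1 common scrambled pool on 2-colour arrays of 45220 spots, of which 41174 were gene probes, 34186 with a symbol. The deposited scanner files hold, for each channel of a spot, a mean and a median pixel intensity and the intensity around the spot, none of them corrected, per the file headers. The scanner program is not given in the sources used here. The authors' deposited table gives 1 log2 ratio of siRNA pool over reference per spot, and how they normalized it is not given in the sources used here. It followed the ratios computed here with a correlation across probes of 0.850 to 0.971, and served as an alternative.

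Using limma 3.58.1 in R 4.3.3, mean intensities were corrected with normexp (offset 50), and a loess curve weighted 0 for controls was removed from the ratios of each array. Every gene probe was fitted with lmFit and eBayes, with a signed coefficient for each siRNA, a dye term and 8 arrays (5 residual degrees of freedom), and two-sided p-values were adjusted by Benjamini-Hochberg over all gene probes. A call is an adjusted p under 0.05. Probes of a gene are numbered by brightness, and the brightest stands for the gene. A spot counted as saturated at a median pixel of 65300 or more, and as above the empty spots beyond the 97.5th percentile of 959 dim control spots, which the files do not name as empty. The median spot intensity of an array was 58.0 to 123 for the siRNA pools and 66.0 to 83.9 for the reference. The fit was tested on simulated data.

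All members and Foxo6 are named. From each microtubule list at most 4 called genes with the smallest p are named, and from each marker list at most 2. The genes most like the members are those with the highest Pearson r, 5 for the mean and 2 per member. For Tuba1a, whose spot was saturated on every array, they are named only because they recur for the mean. Members and lists were chosen with earlier results of these data known. The pools are described as independent. Alternatives covered background, normalization, saturation, dye term, probe choice, spread, replicate block and single arrays.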

Additional observations from a re-analysis of the deposited data

Results flagged for a closer look

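Among 34 groups of 4 arrays (17 member probes by 2 siRNAs), 1 array stood apart from its group by a gap above Dixon's 95% critical value for 4 samples. For Map1b probe 3, siFoxO6-2 replicate 4 had a log2 ratio of 0.02 while the other 3 pools lay between -0.15 and -0.13, and the gap was 0.899 of the range. Chance alone gives such a gap in about 1 in 20 groups, and this probe was not above the empty spots on every array.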

How the results depend on the processing

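Of the 17 member probes, 7 were called over both siRNAs, 1 for siFoxO6-2, 0 for siFoxO6-3 and 0 for their difference. Over both siRNAs the count was 0 with median centring in place of loess, 0 with a reference pool assumed as variable as an siRNA pool, 3 without a dye term, 3 with a trended robust variance, and 3 with the mean of a gene's probes, where 9 genes were tested. With the reference assumed that variable, 0 of all gene probes were called, and Foxo6 itself was not called either. No call, of a member or of Foxo6, thus held under this assumption. The spread it adds is the residual spread of the fit, which includes noise between arrays besides any between pools. Under it 908 of 41174 gene probes had an unadjusted p under 0.05 over both siRNAs in limma. Whether control pools varied as much as siRNA pools cannot be seen from 1 control pool. For siFoxO6-2 the count was 2 with median pixel intensities, the deposited table, saturated spots left out or dim probes left out, 5 with array weights, and 0 with median centring, the trended robust variance or the variable reference. For siFoxO6-3 it was 2 with median pixel intensities, and 1 with array weights, with the arrays of 1 siRNA fitted alone or with dim probes left out. The difference gave 0 under every alternative run. The replicate block gave 7, 1, 0 and 0 calls, and the same-numbered pools of the siRNAs shared only a number, with deviations correlated at 0.36, -0.177, -0.294 and -0.528. Leaving out 1 array gave 0 to 8 calls over both siRNAs, 0 to 3 for siFoxO6-2 and 0 to 3 for siFoxO6-3. With the 3 arrays least like the others left out, an alternative chosen after seeing the data, the counts were 10, 7, 6 and 0. Over both siRNAs it called 22.4% of all gene probes and 53.4% of the 2058 brightest. The 48 called genes of the microtubule lists became 3 with median centring, 0 with the variable reference, and 25 to 60 without 1 array. The other alternatives, which were added to that count after seeing the data, gave 44 to 70.

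Median centring turned 7 genes above 0 over both siRNAs: Tuba1a 0.66, Tubb3 0.56, Tubb5 0.32, Mapt 0.62, Stmn1 0.74, Stmn2 0.36 and Stmn3 0.41. For siFoxO6-2 the same genes were at 1.06, 0.61, 0.31, 0.70, 0.83, 0.47 and 0.32. For siFoxO6-3 they were at 0.25, 0.51, 0.33, 0.54, 0.64, 0.25 and 0.50, with Map1b at 0.35. Other reversals were of values that were not called. The mean of a gene's probes put Map1b at -0.090 over both siRNAs and at -0.037 for siFoxO6-2, Stmn1 at 0.094 for siFoxO6-2, and the difference between siRNAs at -0.0050 for Tubb5 and 0.039 for Mapt. Tuba1a for siFoxO6-2 was at 0.011 without background correction and at 0.29 in the deposited table. Tubb2b for siFoxO6-3 was at -0.043 with median pixel intensities and at -0.16 with saturated spots left out. The difference between siRNAs was 0.059 for Stmn1 with saturated spots left out, and with array weights 0.017 for Tubb3 and 0.015 for Stmn1. Without the 3 least similar arrays, Map1b for siFoxO6-3 was at 0.31 and the difference for Stmn3 at -0.035. Without 1 array, log2 ratios crossed 0 over both siRNAs for Map1b (-0.028 to 0.22) and Tubb3 (-0.15 to 0.0084). They did so for siFoxO6-2 in Tuba1a (-0.14 to 0.092) and Tubb3 (-0.21 to 0.036). For siFoxO6-3 they did so in Tubb2b (-0.037 to 0.24), Tubb3 (-0.24 to 0.060), Map1b (-0.25 to 0.24) and Stmn3 (-0.31 to 0.14). The difference crossed 0 for Tubb3 (-0.20 to 0.12), Tubb5 (-0.042 to 0.33), Map1b (-0.57 to 0.045), Mapt (-0.17 to 0.069) and Stmn1 (-0.14 to 0.059). Of the single-gene values under these alternatives, 705 kept direction and side of the threshold, 54 lost a call, 25 gained a call and 58 turned direction. The cause of these changes was not tested. The 8 arrays and the single reference pool limit precision, as do saturated spots for Tuba1a and Tubb2b and spots near background for Map1b probes 3 and 4 and Stmn2 probe 2.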
